A study of Mus musculus with 6 samples.

Results

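The neurofilament genes Nefl, Nefm and Nefh, the related gene Ina and the peripherin gene Prph were followed in the first lumbar segment (L1) of the mouse spinal cord. All probe sets whose platform gene symbol is one of these 5 names were taken, which gave 11 of the 45101 probe sets of the array, with 2 for Nefl, 1 each for Nefm and Nefh, 3 for Ina and 4 for Prph. The 6 arrays came from male mice with severe combined immunodeficiency (SCID), a strain that lacks mature T and B lymphocytes and keeps innate immune cells, glia and neurons. Their age was 9 weeks when obtained and 15 weeks on the arrays' labels, and the cord was taken at 6 weeks. In the neural invasion group (N-inv) cells of Capan-1, a human pancreatic cancer line, had been placed inside the left sciatic nerve. The subcutaneous group (SC) and the group given PBS, a salt buffer, were the controls, and the labels give no further detail of either. Each group had 2 arrays, and no label says whether they came from separate animals, so p-values measure only the spread between these samples, which in PBS and N-inv may be technical. The labels do not give the side of the cord that was taken, and in the mouse most motor neurons of the sciatic nerve lie in segments below L1.

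Neurofilaments are the intermediate filaments of mature axons. The light chain (Nefl), the medium chain (Nefm) and the heavy chain (Nefh) assemble into polymers whose amount sets the calibre of large myelinated axons, and alpha-internexin (Ina) joins them as a further subunit in the central nervous system. Peripherin (Prph) is an intermediate filament of neurons that send axons into the periphery, in the cord mainly motor neurons and autonomic preganglionic neurons, and is known for higher levels after axon injury. Nefl and Nefm are direct neighbours on chromosome 14, with 0 protein-coding genes between them in the RefSeq gene table.

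The tissue label was checked first. Genes of the lumbar Hox list were measured (6 of 6 above the filter), as were the 9 pan-neuronal genes and 9 of 10 genes of cholinergic motor neurons, while Chat, the acetylcholine-synthesising enzyme, was dim at 167.2 to 212.5 and the choline transporter Slc5a7 lay below the filter. Of 6 genes of dorsal root ganglion neurons on the array 5 (Scn10a, Scn11a, Trpv1, P2rx3 and Avil) were below the filter, with values between 4.70 and 208.2, and so were 5 of 7 skeletal muscle genes. The 5 Schwann cell genes on the array were all above the filter, and the share of nerve or root tissue in the samples was not tested. The SC arrays were the least alike: they correlated with each other at 0.965, the lowest of the 15 pairs, and SC replicate 2 had Xist, a transcript of female cells, at 13060 against 138.6 to 228.5 in the other 5 arrays, although all mice are labelled male, so the 2 SC arrays did not come from 1 RNA. The signal of the Actb control at its 3' end was 3.81 and 4.70 times that at its 5' end in SC, and 3.05 to 3.57 times in the other arrays. The same ratio of Gapdh was higher in both SC arrays than in PBS but did not separate SC from N-inv. It was 2.82 and 3.02 for PBS, 3.12 and 3.38 for N-inv and 3.52 and 3.38 for SC. Differences that rest on SC are therefore given with and without each SC array for the brightest probe set of each member.

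Of the 11 probe sets, 8 passed the filter on low values, at least 1 for each gene, and 3 dim probe sets of Prph did not. Values are intensities scaled to a common array median of 256.2. Differences are on the log2 scale after adding a pseudocount of 25.6, tested with limma over 27022 probe sets. In N-inv against PBS 0 of the 8 probe sets passed an adjusted p of 0.05, where 0% of all tested probe sets did, and 0 of 8 had an unadjusted p under 0.05 against 4.06% of all. In N-inv against SC 0 of 8 passed the adjusted threshold (0% of all) and 2 of 8, both of Ina, had an unadjusted p under 0.05 against 8.94% of all. In SC against PBS 0 of 8 passed (0% of all), and 0 of 8 against 7.92% of all had an unadjusted p under 0.05. The lowest two-sided p that exact permutation of these arrays allows is 0.333, so that test was not used.

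**Figure D1:**
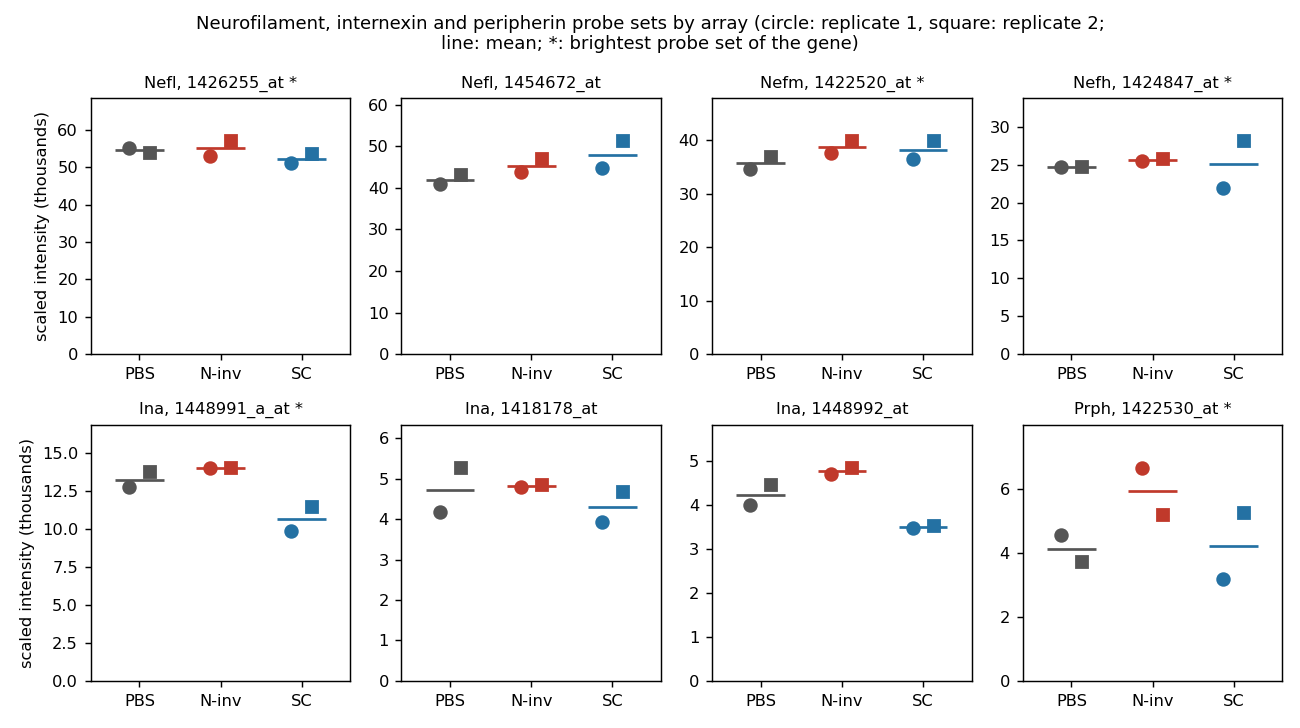
Scaled intensity (vertical axis, from 0, in units of 1000) of the 8 tested probe sets in the PBS, N-inv and SC arrays, with circles for replicate 1, squares for replicate 2, lines for group means and an asterisk at the brightest probe set of each gene. The Nefl, Nefm and Nefh points lie near one level in all groups, the SC points of Ina probe set 1448991_a_at lie below the rest, and Prph spreads from 3167 to 6654.

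Nefl, the core subunit without which the other chains do not assemble well, was at the top of the measured range. Its brightest probe set (1426255_at) measured 55210 and 53770 in PBS, 52970 and 57060 in N-inv, with 51190 and 53480 in SC. The groups PBS and N-inv overlapped, and both SC arrays lay just under both PBS arrays. The log2 difference was 0.01 ± 0.15 (SE) in N-inv against PBS, with a 95% confidence interval in fold terms of 0.783 to 1.30, and -0.06 ± 0.15 in SC against PBS. In the values as deposited SC, at 55770.6 and 50440.4, overlapped with PBS, at 56578.6 and 52582.6.

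The second Nefl probe set (1454672_at) measured 40940 and 43020 in PBS, 43830 and 46910 in N-inv, with 44720 and 51340 in SC. Here both SC arrays lay above both PBS arrays, opposite to the first probe set, with log2 differences in SC against PBS of 0.19 ± 0.16 and -0.06 ± 0.15. The probe sets of Nefl therefore disagreed on the direction in SC, and neither difference passed the test (adjusted p of 0.837 and 0.961 in limma). With the mean of both probe sets the SC against PBS difference of Nefl was 0.07.

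Nefm, the medium chain, measured 34570 and 36910 in PBS, 37620 and 39800 in N-inv, with 36460 and 39840 in SC. Both N-inv arrays lay above both PBS arrays, by a log2 difference of 0.12 ± 0.16 (SE) with a fold interval of 0.836 to 1.40, and SC overlapped with both groups. Nefh, the heavy chain whose tail carries many phosphorylated repeats, stood at 24700 and 24650 in PBS, then at 25450 and 25690 in N-inv, a log2 difference of 0.05 ± 0.18. In SC it measured 21940 and 28150, so that 1 SC array was the lowest and the other the highest of all 6. Without SC replicate 1 and without SC replicate 2 the SC against PBS difference was -0.03 and -0.09 for Nefl and 0.16 and 0.03 for Nefm. For Nefm it was 0.09 with both SC arrays. Against PBS the SC difference of Nefh was 0.01 with both arrays, 0.19 without SC replicate 1 and -0.17 without SC replicate 2. With both SC arrays N-inv against SC was at 0.07 for Nefl, 0.02 for Nefm and 0.04 for Nefh. Without SC replicate 1 these were 0.04, -0.04 and -0.14 in the same order, and without SC replicate 2 they were 0.10, 0.09 and 0.22.

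From the lowest to the highest array the brightest probe sets of Nefl, Nefm and Nefh spanned 0.16, 0.20 and 0.36 on the log2 scale, and 98.9%, 96.7% and 80.9% of all tested probe sets spanned a wider range. The second Nefl probe set spanned 0.33, and 85.3% spanned a wider range. On each array these signals stood above at least 99.17% of all probe sets, where the brightest signal of an array was between 71090 and 87500. How far the array response is compressed at such intensities was not tested. In N-inv against PBS the 95% intervals of the chains' 4 probe sets reached down to 0.772-fold and up to 1.41-fold. These arrays thus leave room for lower as well as higher levels within those bounds. In bulk cord, fewer neurons and less RNA per neuron cannot be told apart.

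Ina, the alpha-internexin subunit, had the lowest difference of the 5 members in SC against PBS. Its brightest probe set (1448991_a_at) measured 12740 and 13730 in PBS, 14010 and 14030 in N-inv, with 9862 and 11410 in SC. Both SC arrays lay below all 4 other arrays. The log2 difference was -0.32 ± 0.16 (SE) in SC against PBS (adjusted p = 0.70 in limma) and 0.40 ± 0.16 in N-inv against SC (unadjusted p = 0.044, adjusted p = 0.546 in limma), while N-inv against PBS was at 0.08 ± 0.16.

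A further Ina probe set (1448992_at) measured 4003 and 4460 in PBS, 4702 and 4843 in N-inv, with 3462 and 3516 in SC, again with SC below the other arrays, and its N-inv against SC difference was 0.45 ± 0.155 (SE, unadjusted p = 0.0245, adjusted p = 0.495 in limma). The last Ina probe set (1418178_at) measured 4171 and 5272 in PBS, 4804 and 4848 in N-inv, with 3939 and 4661 in SC, where PBS and SC overlapped. Its difference was 0.17 ± 0.19 in N-inv against SC and -0.13 ± 0.19 in SC against PBS. All 3 probe sets carry the same accession in the platform annotation and point the same way, so they are 1 transcript read 3 times and not replicates.

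Ina lay lower in SC with either SC array left out. Without SC replicate 2, the array with Xist, SC against PBS was at -0.42 and N-inv against SC at 0.51 for the brightest probe set. Without SC replicate 1 these values were -0.21 and 0.30. The Actb 3' to 5' ratio was higher in both SC arrays (3.81 and 4.70) than in all others. The Gapdh ratio was higher in both SC arrays (3.52 and 3.38) than in PBS (2.82 and 3.02). It did not separate SC from N-inv, where replicate 2 was at 3.38. The part of these ratios in the Ina values was not tested.

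Within an array, Ina was lower relative to the neurofilament chains in SC. Set to 0 at the PBS mean, the log2 difference of Nefm over Ina was 0.01 and -0.01 in the PBS arrays, -0.01 and 0.07 in the N-inv arrays and 0.45 and 0.37 in the SC arrays. The same quantity for Nefh over Ina was 0.25 and 0.40 in SC and between -0.06 and 0.06 in the other 4 arrays, and for Nefl over Ina it was 0.33 and 0.19 in SC and between -0.12 and 0.07 in the others. By the brightest probe sets and this scaling the subunits in SC stood in unequal proportion to PBS in both arrays, as a description without a test. With quantile normalization the SC against PBS difference was -0.23 for Nefl, -0.0557 for Nefm, -0.109 for Nefh and -0.343 for Ina. Nefl was then closer to Ina. The Ina probe set 1418178_at, where PBS and SC overlapped, was at -0.13 in the chosen setting.

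Prph, peripherin, was the member with the highest difference in N-inv. Its 1 bright probe set (1422530_at) measured 4560 and 3700 in PBS, 6654 and 5175 in N-inv, with 3167 and 5224 in SC. Both N-inv arrays lay above both PBS arrays, whereas the SC arrays took the lowest value of all and one above N-inv replicate 2. Prph averaged 4130 ± 608 for PBS, 5914 ± 1050 for N-inv and 4196 ± 1450 for SC (SD, n = 2 per group).

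The log2 difference of Prph was 0.51 ± 0.28 (SE) in N-inv against PBS, with a fold interval of 0.902 to 2.25, and 0.53 ± 0.28 in N-inv against SC, with an interval of 0.910 to 2.28. The adjusted p was 1 and 0.631 in limma. Neither difference passed the test, and both intervals hold 1 as well as folds above 2. N-inv against PBS was at 0.33 without N-inv replicate 1 and at 0.69 without N-inv replicate 2, and at 0.66 and 0.36 without PBS replicates 1 and 2. N-inv against SC was at 0.17 without SC replicate 1 and at 0.88 without SC replicate 2. SC against PBS was at -0.01 with both SC arrays and turned from -0.37 without SC replicate 2 to 0.34 without SC replicate 1.

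Relative to the neurofilament chains of the same array Prph was higher than the PBS mean in both N-inv arrays and in SC replicate 2. Set to 0 at the PBS mean, the log2 difference of Nefh over Prph was -0.15 and 0.15 in the PBS arrays, -0.65 and -0.27 in the N-inv arrays, and 0.20 and -0.155 in the SC arrays. For Nefm over Prph it was -0.20 and 0.20 in the PBS arrays, -0.62 and -0.175 in the N-inv arrays, and 0.40 and -0.187 in the SC arrays. For Nefl over Prph it was -0.13 and 0.13, then -0.73 and -0.265, then 0.28 and -0.372 in the same order. SC replicate 2 was thus past N-inv replicate 2 for Nefl and Nefm, and PBS replicate 1 was past N-inv replicate 2 for Nefm.

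The 3 dim Prph probe sets have no accession in the platform annotation, and 2 of them carry the suffix that marks probes shared with other sequences, so what they measure is uncertain. Probe set 1420256_x_at measured 56.6 and 30.3 in PBS, 272.3 and 251.8 in N-inv, with 32.3 and 166.1 in SC. Probe set 1449797_x_at went the other way, with 156.0 and 147.0 in PBS, 50.8 and 63.1 in N-inv, with 113.5 and 197.8 in SC. Probe set 1449796_at ranged from 33.5 to 143.1 with overlapping groups. Tested without the filter, over 45037 probe sets, the first 2 had log2 differences of 2.08 ± 0.59 and -1.11 ± 0.28 (SE) in N-inv against PBS, with adjusted p of 0.85 and 0.769 in limma. The dim probe sets disagreed with each other and give no second reading of Prph.

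**Figure D2:**
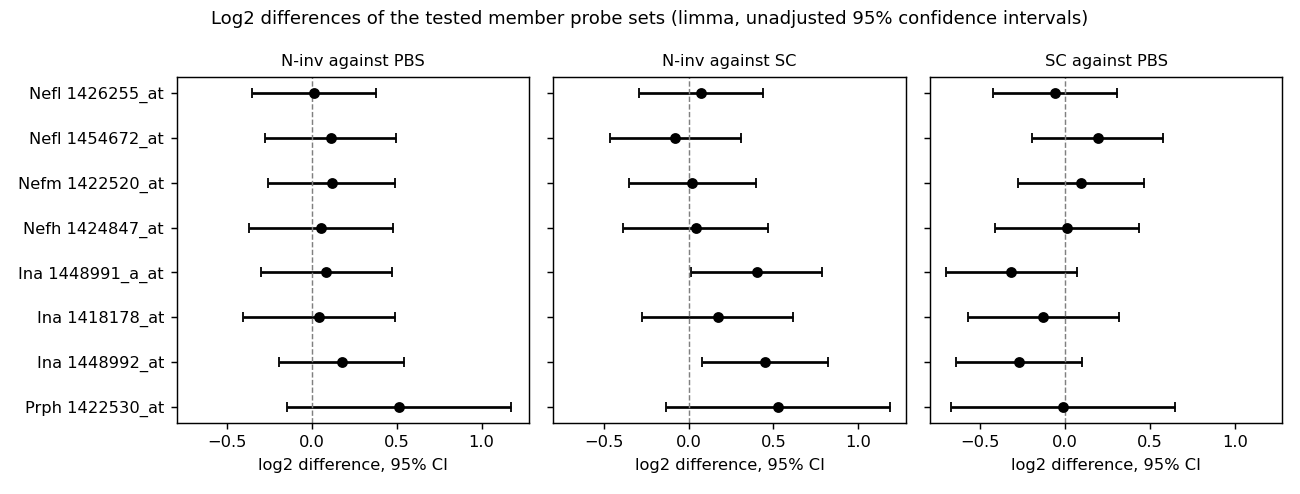
Log2 difference (horizontal axis) of the 8 tested probe sets in the 3 comparisons (N-inv against PBS and against SC, and SC against PBS), with bars for the unadjusted 95% confidence intervals of limma. All intervals cross 0 except those of Ina 1448991_a_at and 1448992_at in N-inv against SC, and the widest belong to Prph.

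Across the members the counts were as follows. In N-inv against PBS the brightest probe sets of all 5 genes had differences above 0, with a median of 0.08, where 55.4% of all tested probe sets were above 0 and their median was 0.02. In 4 of the 5 genes both N-inv arrays lay above both PBS arrays, against 21.6% of all tested probe sets, and in 0 of 5 below them, against 14.6%. Nefl was the exception. The size of these gaps was small: 3 of the 4, those of Nefm, Nefh and Ina, were differences of 0.12 or less, under the median absolute difference of 0.13 over all probe sets. In the values as deposited the Nefh groups overlapped, with 25316 and 24106.2 in PBS and 24897 and 25059.8 in N-inv. With quantile normalization the median of the 5 members was 0.00, and Nefl and Nefh turned to -0.08 and -0.05.

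In N-inv against SC the median of the 5 members was 0.07 and that of all tested probe sets 0.05. Here 1 of 5 genes, Ina, had both N-inv arrays above both SC arrays, against 23.6% of all, and 0 of 5 had them below, against 13.3%. In SC against PBS the median was -0.01 for the members and -0.02 for all, and 2 of 5 genes, Nefl and Ina, had both SC arrays below both PBS arrays, against 20.2% of all, while 0 of 5 had them above, against 14.2%. In the values as deposited SC and PBS overlapped for Nefl. The comparisons share arrays and are not independent of each other. Without SC replicate 2 the members' median was -0.17 in SC against PBS and 0.22 in N-inv against SC, and without SC replicate 1 it was 0.16 and 0.04. The median over all tested probe sets moved too, to -0.0975 and 0.124 without SC replicate 2 and to 0.0557 and -0.0298 without SC replicate 1. A part of the members' shift is thus shared by the whole array.

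Ina and Prph spanned the widest ranges among the brightest member probe sets, 0.51 and 1.07 on the log2 scale over the 6 arrays. Their promoter sequences from RefSeq (GRCm38.p6, plus strand, 250 bases before to 50 after the start site, 5′ to 3′) are printed because they are the 2 of the 5 members with an entry in the promoter table used, Ina at chr19:47014431-47014730 and Prph at chr15:99054924-99055223. Capitals mark matches to TATAAA and GGGCGG on either strand.
Ina: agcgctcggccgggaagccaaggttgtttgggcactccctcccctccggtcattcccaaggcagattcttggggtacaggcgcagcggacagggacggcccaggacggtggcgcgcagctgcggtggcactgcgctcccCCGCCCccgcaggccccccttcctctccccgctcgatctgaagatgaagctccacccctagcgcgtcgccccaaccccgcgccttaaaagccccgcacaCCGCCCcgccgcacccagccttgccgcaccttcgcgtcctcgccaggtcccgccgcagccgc
Prph: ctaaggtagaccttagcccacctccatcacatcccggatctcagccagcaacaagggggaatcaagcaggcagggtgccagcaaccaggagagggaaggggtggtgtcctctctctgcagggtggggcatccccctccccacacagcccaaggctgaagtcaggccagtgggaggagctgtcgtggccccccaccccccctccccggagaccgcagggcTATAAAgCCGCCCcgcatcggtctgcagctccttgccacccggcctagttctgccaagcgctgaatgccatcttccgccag
The Prph window held 1 TATAAA, which begins 31 bases before the start site, and 1 GGGCGG match on the minus strand. The Ina window held no TATAAA and 2 GGGCGG matches on the minus strand. TATAAA occurred in 13.6% and GGGCGG in 35.7% of the 32851 promoters of this length. The GC content was 71.7% in Ina and 64.7% in Prph, against a median of 52.7% over all promoters. Neither window held CCAAT on either strand, which 37.4% of all promoters did. The AP-1 motif TGANTCA was likewise not found and occurred in 7.81% of all promoters. The cAMP response element TGACGTCA was not found either and occurred in 1.79%. A match describes letters in this window and is not a known site.

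Genes known to respond to axon injury were set beside the members. Of the 10 in the list, all 10 had both N-inv arrays above both PBS arrays (21.6% of all tested probe sets did), with a median difference of 0.88 on the log2 scale, and 0 passed the adjusted threshold. The transcription factor Atf3 measured 239.4 and 135.4 in PBS, 601.2 and 788.5 in N-inv, with 166.1 and 681.0 in SC. Sprr1a, known from neurons that regrow axons, had intensities of 112.6 and 141.6 in PBS, 4143 and 3367 in N-inv, with 187.1 and 2303 in SC. Both genes showed a split SC group, low in replicate 1 and high in replicate 2, as did Prph at 3167 and 5224 and Nefh at 21940 and 28150. The scaling widened this gap, since the deposited medians of the SC arrays were 279.2 and 241.7. In the values as deposited Prph was at 3450.8 and 4927.5 in SC, and Nefh at 23905 and 26553.8. The split was not limited to injury genes, nor shared by all of them. By scaled intensity the astrocyte gene Gjb6 was at 7259 and 14720 in SC, and the injury gene Sdc1 at 162.5 and 151.5.

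The growth-cone protein Gap43 measured 4632 and 5296 in PBS, 7979 and 7423 in N-inv, with 4910 and 6100 in SC, a log2 difference of 0.63 in N-inv against PBS. The neuropeptide gene Gal measured 584.1 and 533.8 in PBS, 1806 and 1260 in N-inv, with 416.6 and 1012 in SC. Like Prph, Gal was higher in N-inv replicate 1 than in replicate 2. So were Sprr1a, Gap43, Jun, Ecel1, Npy and Vip, while Atf3, Sox11 and Sdc1 were higher in N-inv replicate 2. Summed over the 10 injury genes the signal was 10900 and 12430 in PBS, 24060 and 21760 in N-inv, with 11690 and 19170 in SC. On the log2 scale Prph lay 0.34 above the PBS mean in SC replicate 2 and 0.33 above it in N-inv replicate 2.

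**Figure D3:**
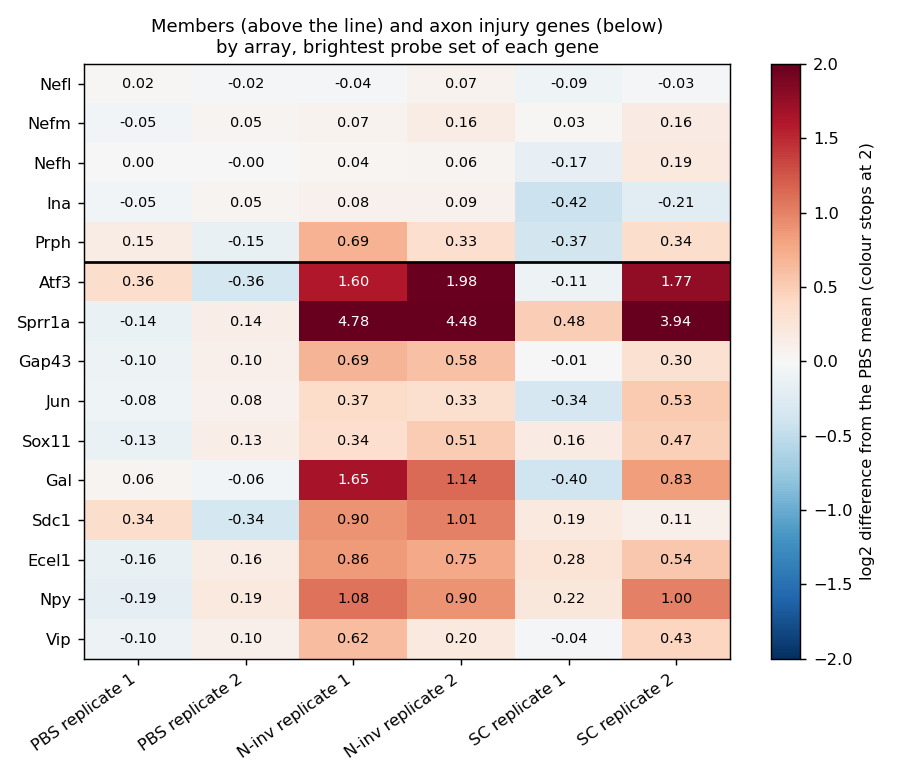
Log2 difference from the PBS mean in each of the 6 arrays (columns, values printed in the cells, colours stopping at 2) for the 5 members above the line and the 10 axon injury genes below it, each by its brightest probe set. Both N-inv arrays and SC replicate 2 are above 0 for Prph (0.69, 0.33 and 0.34) and for every injury gene. The same holds for Nefm (0.075, 0.156 and 0.157) and Nefh (0.045, 0.058 and 0.19). Prph is also above 0 in PBS replicate 1 (0.15), and Nefl stays between -0.09 and 0.07.

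Genes of the cholinergic motor neurons that express Prph were compared next. Their summed signal was 13640 and 11850 in PBS, 14980 and 13120 in N-inv, with 8824 and 12540 in SC, with PBS and N-inv overlapping and SC replicate 1 lowest, as for Prph. Of the 9 tested genes 0 passed the adjusted threshold in each comparison, with medians of 0.19 in N-inv against PBS and 0.06 in SC against PBS. The GDNF co-receptor Gfra1 measured 1741 and 2126 in PBS, 3632 and 2638 in N-inv, with 1696 and 2757 in SC. Chodl, a marker of fast motor neurons, measured 4823 and 3142 in PBS, 3409 and 2872 in N-inv, with 1684 and 1821 in SC, a log2 difference of -1.14 ± 0.24 (SE) in SC against PBS (adjusted p = 0.507 in limma). Pan-neuronal genes summed to 146000 and 148500 in PBS, 151000 and 158700 in N-inv, with 137800 and 162000 in SC, with a median of 0.08 in N-inv against PBS, 0.03 against SC, and 0.02 in SC against PBS. The part of neuron content in the Prph and Ina values was not tested.

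Among the partners of neurofilaments in the axon, 0 genes passed the adjusted threshold in any comparison. Of 23 tubulins and microtubule-binding proteins 19 had differences above 0 in N-inv against PBS, with a median of 0.09, and 11 had both N-inv arrays above both PBS arrays. Of all tested probe sets 55.4% were above 0 and 21.6% had such a gap. Crmp1, a protein of growth-cone signalling, measured 2819 and 3071 in PBS, 4593 and 3772 in N-inv, with 2507 and 3322 in SC. The neuronal tubulin Tubb3 measured 6679 and 5586 in PBS, 8074 and 8299 in N-inv, with 5273 and 7140 in SC. In SC against PBS 11 of the 23 were above 0 (46% of all tested probe sets were), with a median of -0.03. Both SC arrays lay below both PBS arrays in 6 of the 23 and above them in 2, against 20.2% and 14.2% of all. Among the 6, the tubulin-binding protein Stmn4 measured 6384 and 5285 in SC against 8983 and 8273 in PBS, lower in both arrays as Ina was. Tubb4a measured 8058 and 8595 against 11370 and 12640.

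Of 18 motor proteins of axonal transport 14 were above 0 in N-inv against PBS (55.4% of all tested probe sets were), with a median of 0.10. Kif1a, a carrier of synaptic vesicle precursors, measured 988.6 and 1031 in PBS, 1545 and 1338 in N-inv, with 1519 and 1608 in SC, higher in N-inv and in SC than in PBS. Kif5a, a kinesin that carries neurofilaments, measured 34410 and 36920 in PBS, 38620 and 38780 in N-inv, with 35200 and 43080 in SC. Of 11 crosslinkers and membrane skeleton genes 10 were above 0 in N-inv against PBS, with a median of 0.12. The exception, Ank3, the ankyrin of the axon initial segment, measured 10750 and 11480 in PBS, 9300 and 7552 in N-inv, with 18950 and 18040 in SC, a log2 difference of -1.14 ± 0.17 (SE) in N-inv against SC (adjusted p = 0.389 in limma).

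Of 13 kinases, phosphatases and turnover factors of neurofilaments 8 were above 0 in N-inv against PBS, with a median of 0.03. Of all tested probe sets 55.4% were above 0, with a median of 0.02. Hspb1, a small heat shock protein that binds neurofilaments, measured 3025 and 3149 in PBS, 4568 and 4947 in N-inv, with 3737 and 4991 in SC. Cdk5r2, an activator of the neurofilament kinase Cdk5, measured 553.5 and 830.5 in PBS, 271.9 and 273.1 in N-inv, with 697.5 and 351.1 in SC. The kinase Cdk5 itself measured 4388 and 4089 in PBS, 4291 and 4430 in N-inv, with 3797 and 4407 in SC, with overlapping groups.

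Of the 8 tested intermediate filaments of other cell types or of the nucleus 3 were above 0 in N-inv against PBS (55.4% of all tested probe sets were). Gfap, the filament of astrocytes, measured 6665 and 7927 in PBS, 20520 and 19210 in N-inv, with 4640 and 15370 in SC. Vim, vimentin, stood at 6077 and 6920 in PBS, 8099 and 7442 in N-inv, with 6345 and 8783 in SC. Gfap shared the split SC group of Prph and Nefh. The nuclear lamin Lmnb1 measured 624.6 and 484.7 in PBS and 477.8 and 429.6 in N-inv.

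Markers of glia and other cells are given beside these values. The 5 microglial genes all had both N-inv arrays above both PBS arrays (21.6% of all tested probe sets did), with a median of 0.50, and summed to 15720 and 16380 in PBS, 25090 and 20880 in N-inv, with 13060 and 14760 in SC. The 5 astrocyte genes other than Gfap had a median of 0.10 in N-inv against PBS. Of the 5 oligodendrocyte genes 3 had both SC arrays below both PBS arrays, as Ina had (20.2% of all tested probe sets did), with a list median of -0.26. Mbp, the myelin basic protein of the same list, went the other way, with 69610 and 75410 in PBS and 80640 and 83710 in SC. The 5 tested Schwann cell genes summed to 5859 and 6575 in PBS, 6740 and 8003 in N-inv, with 7983 and 9587 in SC. In N-inv against PBS 4 of them had differences above 0 (55.4% of all tested probe sets did) and 1, Cldn19, below. Cldn19 measured 270.8 and 225.7 in PBS, 130.2 and 53.71 in N-inv, with 210.1 and 204.5 in SC. The dorsal root ganglion genes summed to 943.9 to 1044 in PBS and N-inv and to 1248 and 1253 in SC, where Pou4f1, the 1 gene of that list above the filter, was at 818.1 and 892.7 against 553.1 to 666.4 elsewhere. The 6 Hox genes summed to 18100 to 20750 over all arrays. The part of these cells in the members' values was not tested.

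**Figure D4:**
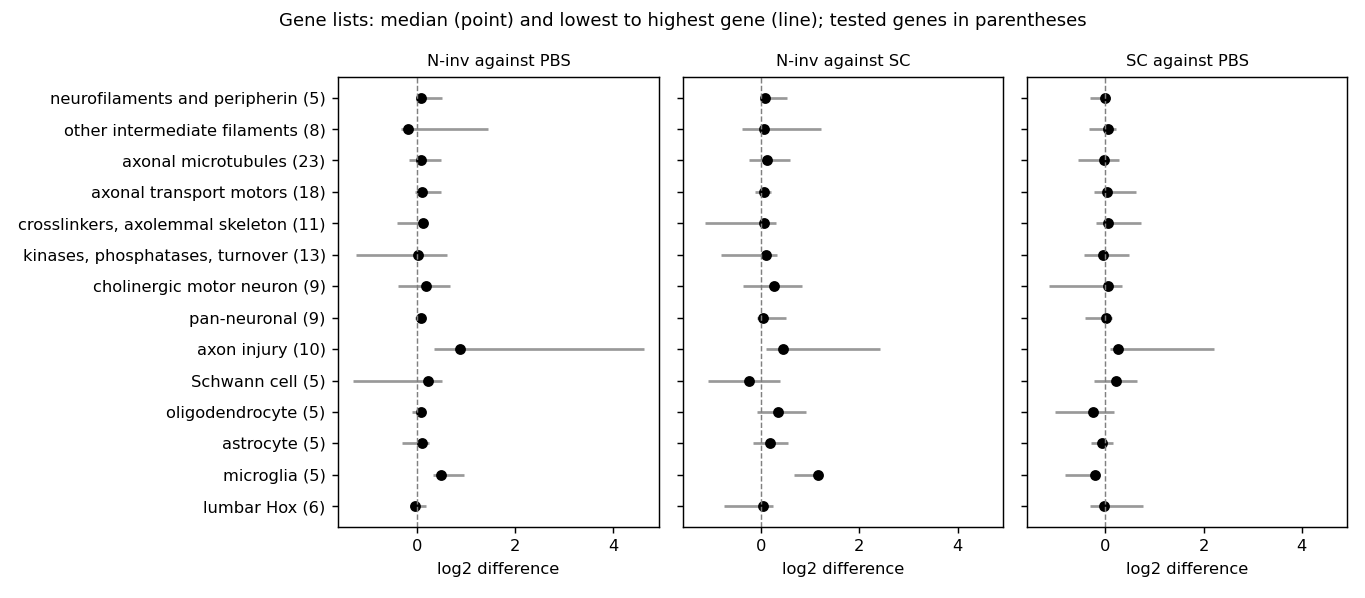
Median log2 difference (points) and the range from the lowest to the highest gene (lines) of the members and of each list with at least 5 tested genes, in the 3 comparisons. The medians of the neurofilament and peripherin genes (0.08, 0.07 and -0.01) and of the axonal cytoskeleton lists lie near 0, and those of the axon injury list are 0.88, 0.44 and 0.27.

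For each member the 3 genes with the most similar course over the 6 arrays were found by Pearson's r of log2 values among 12609 other named genes. With 6 arrays a high r is frequent, and 69 genes for Nefl up to 781 for Nefh had r above 0.9, so these names describe the arrays only. Nefl was most like Psmd4 (0.985), Fam131a and Brwd3, and Nefm most like Egln2 (0.992), Prepl and Srebf1. Nefh was most like Fzd6 (0.999), Lifr and Aard, all with their lowest value in SC replicate 1 and their highest in SC replicate 2. Ina was most like Zc4h2 (0.999), which measured 1515 and 1766 in SC against 2058 to 2309 elsewhere, followed by Enpp5 and Eri3. Prph was most like Daam2 (0.995), Fxyd7 and the neuronal ubiquitin hydrolase Uchl1, at 8342 and 8194 in PBS and 9331 and 8801 in N-inv. Between members r ran from 0.14 for Nefm with Ina to 0.72 for Nefh with Prph, as a description over arrays that share their scaling.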

How the data were processed

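The authors deposited linear intensities, 1 per probe set, from an Affymetrix expression array hybridised with target made from 100 ng of RNA in a labelling protocol with a repeated amplification cycle, per the labels' protocols. Each array as deposited has a trimmed mean (2% off each end) of 1000, a sign of earlier scaling. The summary method for probes is not given in these sources. The number of arrays limits the precision.

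Here 64 control probe sets were left out, each array was scaled to the median over all values, log2(intensity + 25.6) was taken, and probe sets whose mean log2 value lay above the 40th percentile (an intensity of 147.7) were kept. The brightest probe set stands for a gene. Tests used limma 3.58.1 (R 4.3.3; lmFit and eBayes) with a mean per group over all 6 arrays, two-sided, with 3 residual degrees of freedom and Benjamini-Hochberg adjustment over 27022 probe sets. Folds on this scale understate changes of dim genes. Of 159 genes in 15 lists 143 had a probe set with that symbol alone. In each list the 3 genes with the smallest p could be named. For each member the 3 genes of highest correlation were named, and Gfap, Chat, Atf3 and Sprr1a always. Kif5a, Cdk5, Xist and the markers below the filter were named after their values were seen. Members and lists were chosen with earlier results of these data known.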

Additional observations from a re-analysis of the deposited data

How the results depend on the processing

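For the members 16 alternatives to the processing were run. In none of them did any of the 15 differences of a member (5 genes in 3 comparisons) pass the adjusted threshold in limma, and in 9 of the 15 at least 1 alternative turned the sign. The direction held in all 16 for Ina and Prph in N-inv against PBS and against SC, for Nefm in N-inv against PBS and for Ina in SC against PBS. Not all 16 could turn a direction. The other filters, the intensity trend, the replicate block and the fit of only the groups compared leave each difference as it is. Leaving out an array of a group outside the comparison hardly moves it. The mean of the probe sets leaves genes with 1 tested probe set, such as Prph, unchanged. With the values as deposited Nefl was at -0.0222 in N-inv against PBS, Nefm at -0.0314 and Nefh at -0.0124 in N-inv against SC, and Prph at 0.004 in SC against PBS. With quantile normalization Nefl was at -0.0769 and Nefh at -0.0453 in N-inv against PBS, and Nefm at -0.0557 and Nefh at -0.109 in SC against PBS. With the mean of all probe sets of a gene Nefl was at -0.00404 in N-inv against SC and at 0.0663 in SC against PBS. The cause was not tested in any of these.

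Leaving out 1 array at a time, where a lone array is assumed to vary like the other groups, gave from -0.0407 to 0.0666 for Nefl in N-inv against PBS, from -0.0421 to 0.0859 for Nefm and from -0.14 to 0.22 for Nefh in N-inv against SC, and from -0.17 to 0.19 for Nefh and from -0.37 to 0.34 for Prph in SC against PBS. The median of the 5 members ran from 0.0527 without PBS replicate 1 to 0.138 without PBS replicate 2 in N-inv against PBS, where leaving out these arrays moved Nefm to 0.07 and 0.16 and Ina to 0.03 and 0.14. It ran from 0.0341 to 0.22 in N-inv against SC and from -0.17 to 0.16 in SC against PBS. Over all tested probe sets the median ran from -0.0298 to 0.124 and from -0.0975 to 0.0557 in these 2 comparisons. Over all probe sets the chosen setting called 0 in each comparison, with 1097, 2417 and 2141 at an unadjusted p under 0.05, and leaving out 1 array gave 0 to 1, 0 to 1 and 0 to 9 calls, in the order N-inv against PBS, then against SC, then SC against PBS. The 9 came without SC replicate 1 and included Xist. With only the groups compared 1 probe set, of Sprr1a, was called in N-inv against PBS. With an intensity trend 1 was called in N-inv against PBS (Depp1) and 2 in N-inv against SC (Serpinb1a and Depp1). None of these was a member.

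The replicate numbers did not pair the arrays, since the deviations of replicates 1 and 2 correlated between groups at 0.01, 0.04 and -0.03. With the replicate block 0 probe sets were called in each comparison. Because every group holds a replicate 1 and a replicate 2, the block cannot change a difference, only its SE. For Prph in N-inv against PBS the SE was 0.277 without the block and 0.302 with it.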
